A study of Mus musculus with 36 samples.

Results

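The clustered histone genes, which code for the bulk of the core and linker histones, were described in mouse blood 7 days after exposure to x-rays, neutrons, or mixtures of both. They were taken as every non-control probe whose gene name in the array annotation starts with Hist, a digit, and h. These were 51 probes for 46 genes, of 39429 probes for 31093 gene names on the array. H1, the linker histone, had 5 probes for 5 genes, H2a had 14 probes for 13 genes, H2b had 11 for 11, H3 had 8 for 8, and H4 had 13 for 9. All 46 names were found in a RefSeq gene table, where they carry newer symbols, such as H2bc18 for Hist2h2bb and H3c1 for Hist1h3a.

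Gene expression was measured with 1 Agilent one-color array per mouse in 36 male C57BL/6J mice that were 8 to 10 weeks old when irradiated. Each of 6 groups held 6 mice. Controls were sham-irradiated, the x-ray group received 3 Gy, and the 5, 15, and 25% neutron groups received 3 Gy of a mixed field with neutron doses of 0.15, 0.45, and 0.75 Gy. The 83% neutron group received a neutron dose of 0.75 Gy without added x-rays. Its sample titles give 100%, while the study's methods put the neutron share of that beam at about 83%, the rest being photons from the source. All groups were whole blood taken by cardiac puncture at day 7. Blood is a mixture, and in it fewer cells of a type and less RNA per cell cannot be told apart.

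Most clustered histone genes are switched on while a cell copies its DNA, to package the new strand. Their messages usually carry no poly(A) tail. They end instead in a short stem-loop, which the stem-loop binding protein Slbp holds while the end is cut. In cells that stop dividing and mature, including red cell precursors, some histone genes also give tailed messages that run on past the stem-loop. Labelling kits of the type used here start from the poly(A) tail, and how much of each message was tailed was not measured. Mature red cells and most white cells of the blood do not divide.

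Which of these messages an array can see depends on the labelling and on the probe sequences, and the sequences are shown first. The histone stem-loop, searched by its conserved letters on the probe strand, lay whole in 7 of the 39429 probes (0.0178%), and 5 of these belonged to clustered histone genes. The other 2 were an unnamed histone transcript probe and a probe for Snrpa. In the 5 windows below, which run from 5′ to 3′, the capitals mark the stem-loop.
Hist2h2bb: caaaaGGCTCTTTTCAGAGCCacttt
Hist1h3a: ccaaaGGCTCTTTTCAGAGCCaca
Hist1h3i: caaaaGGCTCTTTTCAGAGCCccctc
Hist1h3g: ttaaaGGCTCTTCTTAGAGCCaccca
Hist1h4m: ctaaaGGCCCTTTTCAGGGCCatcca
Hist2h2bb, Hist1h3a, and Hist1h3i shared 1 stem-loop sequence, and the H3 gene Hist1h3g and the H4 gene Hist1h4m each had their own. Their places in the mm9 build were chr3:96074056-96074115 on the plus strand for Hist2h2bb, chr13:23853756-23853815 on the minus strand for Hist1h3a, chr13:21874784-21874843 on the minus strand for Hist1h3i, and chr13:23627719-23627778 on the plus strand for Hist1h3g, and the Hist1h4m probe, which is listed for 2 RefSeq genes, is given no place here. A pair of H2a probes held a part of the stem-loop only.
Hist1h2ab: acaaaGGCTCTTTTCA
Hist1h2ae: CTTTTCAGAGCCattca
The Hist1h2ab probe (chr13:23843392-23843451, plus strand) ended before the stem-loop was complete, and the Hist1h2ae probe (chr13:23662489-23662548, minus strand) began inside the stem.

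Another 8 probes ended exactly on the stop codon, 6 of them for H2a genes. The 6 H2a probes are printed in full because they were nearly the same sequence, with the stop codon in capitals.
Hist2h2aa2: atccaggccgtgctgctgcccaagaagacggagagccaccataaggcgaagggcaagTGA
Hist1h2af: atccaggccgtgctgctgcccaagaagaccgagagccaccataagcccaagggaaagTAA
Hist1h2ah: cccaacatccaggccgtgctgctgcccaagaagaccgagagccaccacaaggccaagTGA
Hist1h2ak: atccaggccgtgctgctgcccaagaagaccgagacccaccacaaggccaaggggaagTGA
Hist1h2an: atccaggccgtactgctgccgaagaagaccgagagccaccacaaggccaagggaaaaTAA
Hist2h2ac: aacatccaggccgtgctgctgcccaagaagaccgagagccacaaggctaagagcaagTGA
Slid along each other without gaps to the best match, the 15 pairs of these probes had 40 to 55 identical bases of 60, with a median of 51. The array annotation listed 4 RefSeq genes each for the Hist1h2ah, Hist1h2ak, and Hist1h2an probes. Among all 51 probes, 16 were listed for more than 1 RefSeq gene, 18 shared a run of at least 20 bases with a probe of another clustered histone gene, and 9 shared such a run with a probe outside the family. Of these 9, 5 were H2a stop-codon probes that matched H2afj, a replication-independent H2A gene, over runs of 29 or, for Hist2h2aa2, 38 bases. Signal from these probes is thus the signal of a set of near-identical messages and cannot be given to 1 gene.

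By the positions in the array annotation, 40 probes lay on chromosome 13, 7 on chromosome 3, 1 on chromosome 11, and 1 on chromosome 6, and 2 had no position. The Hist2h2aa2 probe is counted on chromosome 13 (chr13:51298057-51298116), while the promoter of that gene lies on chromosome 3. Proximal promoters around the gene start (RefSeq, GRCm38.p6) were at hand for 40 of the 46 genes. The CCAAT box was found on either strand in 33 of the 40, against 34.5% of 27025 promoters of all genes. TATAAA stood in 21 of the 40, against 13%, and the octamer ATTTGCAT, which POU-domain factors such as Pou2f1 bind, stood in 11, against 1.61%. The 11 octamers belonged to 6 H2a and 5 H2b genes. A match describes the letters of the window and not a bound site.

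Clustered histone probes were above background more often than other probes. A probe was counted as well above background on an array when the scanner software had marked it so. Of the 51 probes, 38 were well above background on all 36 arrays (74.5%, against 31% of all 39429 probes), and 42 passed the filter of more than 75% of the arrays (82.4%, against 39.7%). By class, the probes past this filter were 3 of 5 for H1, 13 of 14 for H2a, 8 of 11 for H2b, 7 of 8 for H3, and 11 of 13 for H4. The 9 probes that failed were those of Hist1h2bq (0 arrays), Hist1h1d (2), Hist3h2bb-ps (3), Hist2h2ab (6), Hist1h2bb (11), Hist1h1a (21), Hist1h3g (25), and Hist1h4h (26), and a second probe of Hist2h4 (5 arrays). Hist1h2bq, an H2b gene, was not well above background in any mouse, which sets no limit on its true level.

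**Figure D1:**
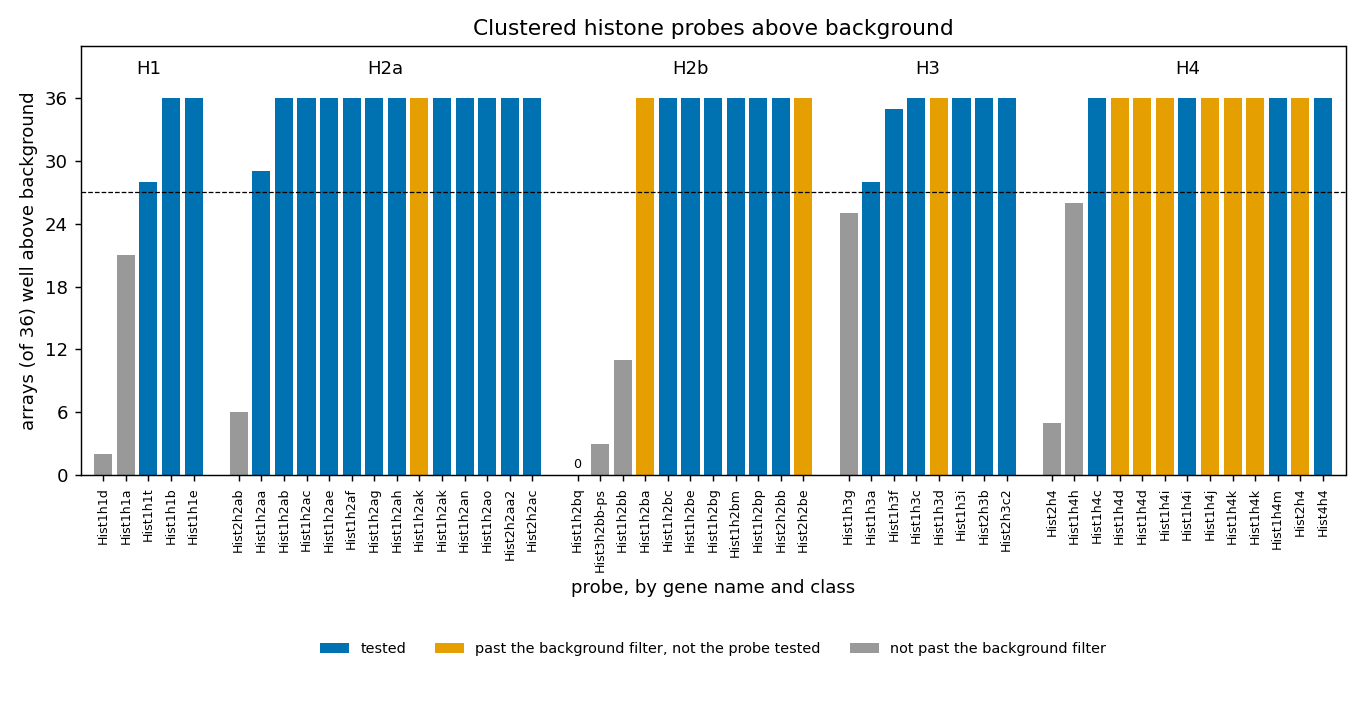
Number of arrays, of 36, on which each clustered histone probe was well above background, by class (bars, from 0). The dashed line marks 75% of the arrays, and colors give the probes tested, those past the background filter that were not the probe tested, and those not past it. In total 42 of 51 probes lie above the line and Hist1h2bq stands at 0.

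Per mouse, 41 to 45 of the 51 probes were well above background in controls (median 43), 45 to 48 after x-rays (46), 44 to 47 after 5% (44.5), 42 to 46 after 15% (43), 43 to 46 after 25% (44.5), and 40 to 44 after 83% neutron (42.5). The x-ray counts met those of controls at 45 only and lay above all those after 83% neutron. Over the whole array the same count was 19490 to 20721 probes per control mouse, 16539 to 19306 after x-rays, and 15564 to 21293 over the neutron mice. No test was made on these counts.

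A second filter asked for a 1.5-fold distance from the median of the probe on 20% of the arrays. This filter and the choice of the brightest probe per gene left 31 of the 46 genes to be tested among 10582 genes in all: 3 of H1, 12 of H2a, 6 of H2b, 6 of H3, and 4 of H4. Levels below are log2 intensities minus the array median. They compare 1 probe between mice and never different probes with each other. A gene was called when p from limma was under 0.001 and its adjusted p under 0.05. All comparisons with controls share the same 6 control mice.

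Relative to the array median, 17 of the 31 genes were higher after x-rays than in controls and none was lower (median log2 difference 1.00), while with spike-in centring 2 were higher and 3 lower of 37 tested (51% of all genes called, 2.16% higher). Over all genes 36.3% were called, 16.4% higher and 19.9% lower. With no gene called lower, 0 had a difference below 0 at an unadjusted p under 0.05, and 27 had one above 0. After 5% neutron 9 genes were higher (27.8% of all genes called, 12% higher and 15.8% lower), after 15% 12 were (35%, 16.5%, and 18.4%), and after 25% 14 were (30.2%, 14.5%, and 15.8%), and none was lower by limma in these 3 comparisons. Unadjusted p values under 0.05 went with 2, 5, and 2 lower differences there. After 83% neutron, 11 were higher and 2 lower (43.6% called, 19.5% higher, 24.1% lower). The median log2 difference of the 31 genes was 0.72, 0.90, 0.81, and 0.58 in the 4 neutron comparisons, against -0.09, -0.05, -0.10, and -0.15 over all genes, and -0.24 over all genes after x-rays. Differences were above 0 for 28, 26, 24, 25, and 26 of the 31 genes, in the order x-rays, 5, 15, 25, and 83%.

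**Figure D2:**
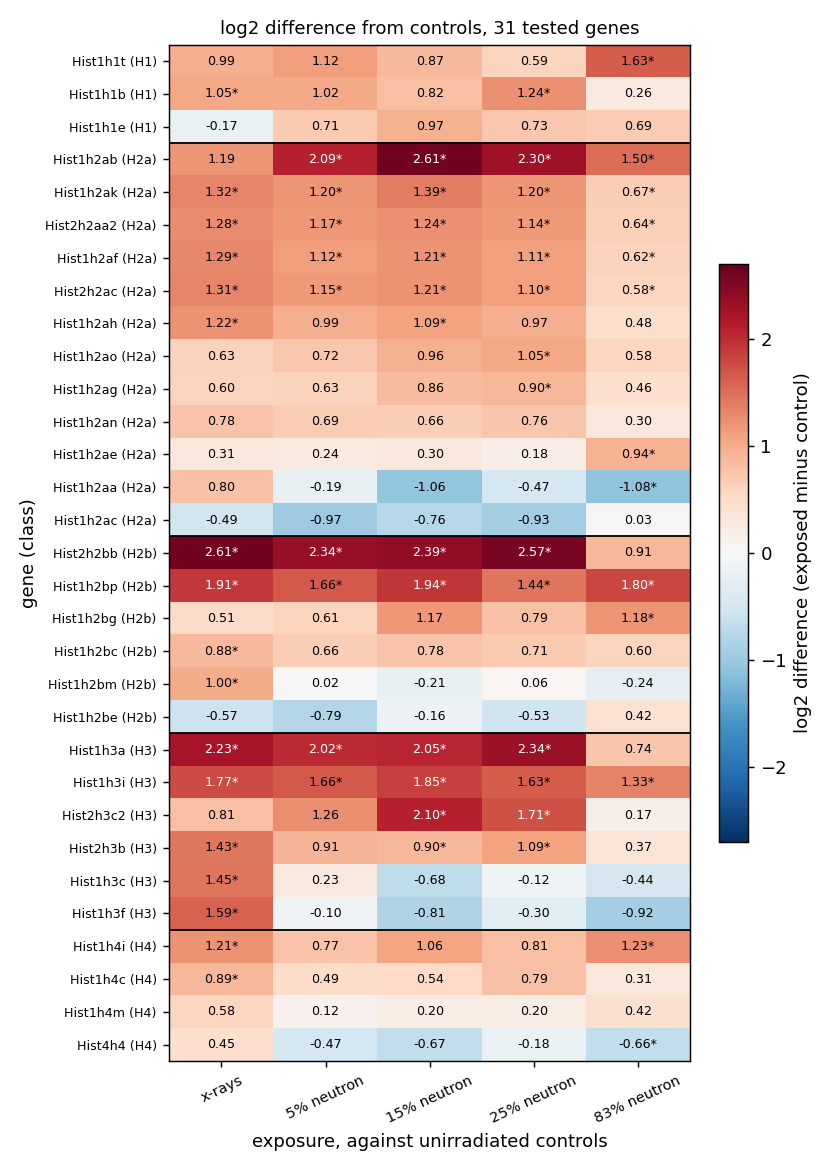
Log2 difference from the controls (color and number) for the 31 tested clustered histone genes, grouped by class, in each of the 5 exposures (columns, 6 mice against 6). Asterisks mark called genes. Hist2h2bb reaches 2.61 after x-rays and Hist1h2aa falls by 1.08 after 83% neutron; differences are relative to the array median, and with spike-in centring the median of the family lay below 0 in all 5 comparisons.

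These directions rest on the scaling. Relative to the array median, the spike-in RNA was higher in every exposed mouse (9.64 to 11.57) than in any control (8.75 to 9.58). Whether the spike-in or the array median had moved was not tested. Centring on the spike-in put the median of the family at -0.12, -1.06, -0.68, -0.35, and -1.64 and the median of all genes at -1.32, -1.85, -1.57, -1.21, and -2.26. Normexp background correction put the family at 0.12, -1.02, 0.51, 0.11, and -1.07. What did not turn was the median of the whole family against the rest of the array: under the main scaling and 6 alternatives the histone median exceeded the median of all genes tested by 0.91 to 1.24 after x-rays, 0.22 to 0.81 after 5%, 0.57 to 0.94 after 15%, 0.50 to 0.91 after 25%, and 0.13 to 0.77 after 83% neutron. Single classes did turn under these settings. The lowest class median minus that of all genes was -0.55 after 15% and -0.22 after 25% for H2a. It was -0.16 after 5% and -0.09 after 15% for H4, and -0.04 after 5% for H2b.

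Scan session also divided the groups. The x-ray and control arrays were scanned together (5 of each in the first session and 1 of each in the last), and within these sessions the median difference of the 31 genes was 0.97 and 1.21. The 5% and 15% arrays shared only the last session with controls, at 1 array each. There the median difference was 0.18 after 5% (20 of 31 genes above 0) and 0.47 after 15% (24 of 31), and with the session as a block 0 genes were called in either comparison by limma, with 0 after 5% and 4 after 15% at an unadjusted p under 0.05. With that block 0.784% and 1.63% of all genes were called. The same block left 19 genes higher after x-rays, where 15.9% of all genes were higher. All 25 and 83% arrays formed a session of their own, so for these groups exposure and session cannot be told apart in comparisons with controls or x-rays.

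Marker genes of blood cell types differed from controls as well. Of 8 tested B cell markers, 8 were lower than in controls after x-rays, 5, 15, and 25% neutron (median log2 differences -4.63, -4.16, -4.18, and -4.30) and 6 after 83% (-1.34). Of 12 erythroid markers, 9, 8, 9, 7, and 12 were higher in the 5 comparisons (medians 2.39, 1.90, 2.00, 1.80, and 1.71) and none was lower. With spike-in centring, however, the erythroid median after 83% neutron was -0.43, and the lowest erythroid median after 5% over the alternative scalings was -0.06. The summed erythroid level ran from 15.73 to 15.99 in controls, from 16.35 to 17.57 after x-rays, from 15.79 to 17.43 after 5%, from 15.96 to 17.75 after 15%, from 15.82 to 17.53 after 25%, and from 16.87 to 17.48 after 83% neutron. The summed B cell level was 11.23 to 12.04 in controls, 6.19 to 9.29 over the x-ray, 5, 15, and 25% mice, and 10.09 to 10.52 after 83% neutron. T cell markers were lower for 4, 5, 3, and 2 of 12 in the first 4 comparisons, with a median of -0.36 after 83% neutron. Neutrophil markers were higher for 4, 3, 4, 4, and 4 of 12 and lower for 0, 0, 1, 1, and 1 (medians 0.29, 0.03, 1.11, 0.57, and 0.52). The median of 8 NK cell markers lay between -0.35 and 0.36 relative to the array median and between -2.04 and -0.72 with spike-in centring, where the neutrophil medians were also below 0, at -1.66 to -0.35. Of the markers listed for whole blood, 8 of 12 for B cells, 7 of 8 for monocytes, 12 of 13 for neutrophils, and all those for T cells, NK cells, platelets, and erythroid cells passed the background filter. The part of these shifts in the histone values was not tested.

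Of the linker histone genes, 3 were tested and 1 was called in each of 3 comparisons. Hist1h1b was 2.71 to 3.52 in controls (median 3.16), 3.53 to 4.75 after x-rays (4.26), 3.47 to 4.86 after 5% (4.18), 3.22 to 4.78 after 15% (3.93), 3.81 to 5.25 after 25% (4.29), and 2.65 to 4.95 after 83% neutron (3.27). Every x-ray and 25% mouse lay above every control, whereas the 83% mice spanned the controls. Its log2 difference was 1.05 ± 0.23 (SE, adjusted p = 0.00155) after x-rays and 1.24 ± 0.25 (adjusted p = 0.00074) after 25% neutron, and 0.26 ± 0.31 after 83%. Leaving out any 1 of 7 arrays, control replicates 3, 4, and 6 or x-ray replicates 1, 3, 4, and 6, ended the x-ray call. Hist1h1e was not called in any comparison by limma, with differences of -0.17, 0.71, 0.97, 0.73, and 0.69 in the 5 exposures, each neutron value at an unadjusted p under 0.05. Hist1h1t, a linker histone known from the testis, was above background in 28 mice, 3 of them controls and 5 of them 83% neutron mice. Its difference after 83% neutron was 1.63 ± 0.35, where 3 of the 6 control values were not well above background. Its call there ended without control replicate 4, or without 83% replicates 2 or 4.

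H2A pairs with H2B in the nucleosome core, and 5, 5, 6, 7, and 6 of its 12 tested genes were higher after x-rays, 5, 15, 25, and 83% neutron, and 1 was lower after 83%, relative to the array median. With spike-in centring 0 of 12 were higher, and 1, 4, 3, 2, and 11 were lower, while 51, 65.6, 56.4, 39.1, and 88.1% of all genes were called and 2.16, 0.638, 1.81, 1.68, and 0.42% were higher. The 6 stop-codon probes made up most of these calls. Their differences from controls lay between 0.78 and 1.32 after x-rays (median 1.29, 5 called), between 0.69 and 1.20 after 5% (1.14, 4 called), between 0.66 and 1.39 after 15% (1.21, 5 called), between 0.76 and 1.20 after 25% (1.11, 4 called), and between 0.30 and 0.67 after 83% (0.60, 4 called). Since these probes shared 40 to 55 of their 60 bases, the 6 values are not 6 separate observations.

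Hist2h2aa2 lay between 10.71 and 11.21 in controls (median 11.09), between 11.87 and 12.76 after x-rays (12.33), between 11.41 and 13 after 5% (12.20), between 11.74 and 12.88 after 15% (12.10), between 11.63 and 13.09 after 25% (12.03), and between 11.52 and 11.93 after 83% neutron (11.65). No exposed mouse of any group fell within the controls. The differences were 1.28 ± 0.18, 1.17 ± 0.28, 1.24 ± 0.23, 1.14 ± 0.25, and 0.64 ± 0.13 (SE), with adjusted p of 6.36e-05, 0.00316, 0.000373, 0.0013, and 0.000534. Hist1h2af followed with 1.29 ± 0.17, 1.12 ± 0.27, 1.21 ± 0.23, 1.11 ± 0.24, and 0.62 ± 0.13. Both 5% calls were lost when any 1 of 9 of the 12 arrays was left out: any control, or 5% replicates 1, 2, or 4. The 25% call of Hist2h2aa2 was lost without control replicate 1, and that of Hist1h2af without control replicates 1 or 4 or 25% replicate 3. Hist1h2ah was called after x-rays (1.22 ± 0.17) and 15% neutron (1.09 ± 0.21), and its other differences were 0.99 after 5%, 0.97 after 25%, and 0.48 after 83%.

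**Figure D3:**
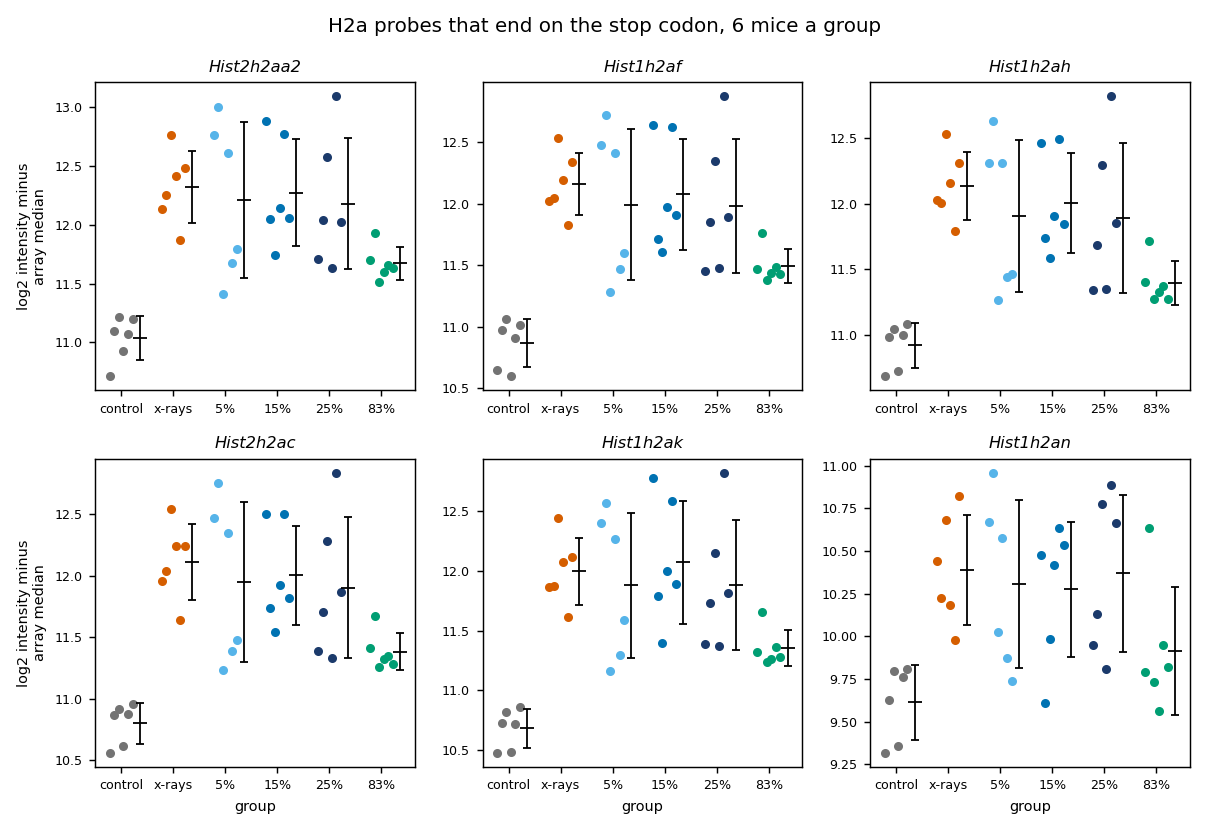
Log2 intensity minus the array median of the 6 H2a probes that end on the stop codon, 1 point per mouse, 6 mice a group, with mean and SD at the right of each group. For Hist2h2aa2 every exposed mouse lies above the highest control at 11.21, and the 83% neutron mice lie lowest among the exposed on average; with spike-in centring the difference turns negative after 5, 15, and 83% neutron.

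A second probe of Hist1h2ak behaved otherwise. The gene's stop-codon probe differed from controls by 1.32, 1.20, 1.39, 1.20, and 0.67, called in each. The second probe lies further toward the 5′ end of the gene (chr13:21845637-21845696, minus strand, listed for 1 RefSeq gene). That probe differed by 0.42, -0.39, -0.89, -0.19, and -0.55, called in none by limma, with unadjusted p under 0.05 after x-rays, 15%, and 83% neutron. This gene was singled out after its values were seen. With quantile normalization, and in the deposited table, the bright H2a stop-codon probes did not reach the tests, and Hist1h2ak was then represented by its second probe. The median of the H2a genes under these settings was 0.59 and 0.44 after x-rays but -0.05 and -0.21 after 5%, -0.55 and -0.74 after 15%, and -0.32 and -0.37 after 25% neutron.

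Hist1h2ab, whose probe holds the first part of the stem-loop, had larger differences from controls than the other H2a genes tested in the 4 neutron comparisons, though not after x-rays. Controls ran from 4.36 to 5.14 (median 4.86), x-ray mice from 5.03 to 7.20 (6.07), 5% mice from 6.22 to 7.42 (6.86), 15% mice from 6.4 to 8.32 (7.61), 25% mice from 6.53 to 8.02 (7.11), and 83% mice from 5.46 to 7.33 (6.41). All 4 neutron groups stood clear of the controls, and 1 x-ray mouse overlapped them. The gene rose by 2.09 ± 0.24, 2.61 ± 0.33, 2.30 ± 0.25, and 1.5 ± 0.26 after 5, 15, 25, and 83% neutron (adjusted p from limma of 1.29e-05, 1.88e-05, 4.36e-06, and 0.000165), while its x-ray difference of 1.19 ± 0.30 was not called (adjusted p = 0.00369 from limma). Against x-rays it was higher by 1.42 ± 0.41 after 15% neutron, at an adjusted p of 0.0334 from limma, which was not called, and in the 1 scan session both groups shared the sign was the opposite (-0.80, 1 mouse against 1). With spike-in centring its difference from controls after 83% neutron was -0.56, and with normexp -0.09.

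Hist1h2aa, an H2A variant gene known from the testis, was the H2a gene called lower. It was 1.45 to 1.99 in controls (median 1.66), 1.84 to 2.94 after x-rays (2.47), 0.44 to 2.65 after 5% (1.62), -0.26 to 1.57 after 15% (0.58), 0.24 to 2.29 after 25% (0.94), and -0.02 to 1.31 after 83% neutron (0.38). After 83% every mouse lay below every control, and only 3 of the 6 mice were well above background. It fell by 1.08 on the log2 scale (SE 0.21, adjusted p = 0.000368). Hist1h2ae, with the last part of the stem-loop, was called after 83% neutron alone, at 0.94 ± 0.11, and Hist1h2ac gave -0.49, -0.97, -0.76, -0.93, and 0.03, called in none by limma and with unadjusted p under 0.05 after 5, 15, and 25%. These 2 genes were named after their values were seen.

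H2B genes were called higher for 4, 2, 2, 2, and 2 of 6 in the 5 comparisons relative to the array median, and with spike-in centring for 1, 0, 0, 1, and 0 of 8, with 1, 6, 3, 3, and 6 lower. Hist2h2bb, whose probe covers the whole stem-loop, lay between 0.35 and 1.64 in controls (median 0.91), between 3.09 and 3.90 after x-rays (3.47), between 2.58 and 3.93 after 5% (3.18), between 2.69 and 3.83 after 15% (3.27), between 2.68 and 4.32 after 25% (3.52), and between 1.38 and 2.30 after 83% neutron (1.78). The first 4 exposed groups lay wholly above the controls, and 4 of the 83% mice did. Differences were 2.61 ± 0.26, 2.34 ± 0.30, 2.39 ± 0.26, and 2.57 ± 0.31 (SE, 6.11-, 5.07-, 5.26-, and 5.92-fold, adjusted p of 2.95e-06, 3.2e-05, 6.37e-06, and 1.42e-05), and 0.91 ± 0.22 after 83%, which was not called.

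Hist1h2bp showed another order. Controls were 3.22 to 3.87 (median 3.78), x-ray mice 5.28 to 5.88 (5.62), 5% mice 3.64 to 6.22 (5.74), 15% mice 4.52 to 6.49 (5.59), 25% mice 4.53 to 6.33 (5.00), and 83% mice 5.38 to 5.65 (5.47). One 5% mouse fell among the controls, and all other exposed mice lay above them. It rose by 1.91 ± 0.18, 1.66 ± 0.38, 1.94 ± 0.30, 1.44 ± 0.27, and 1.80 ± 0.14 (adjusted p of 2.5e-06, 0.00247, 8.76e-05, 0.000525, and 8.11e-08). The 5% call depended on single arrays and was lost without any 1 of 10 of them, all but 5% replicates 3 and 5, and with spike-in centring the 5% and 83% values were -0.03 and -0.26. Hist1h2bc rose after x-rays by 0.88 ± 0.19 (adjusted p = 0.0014), a call lost without control replicates 1 or 2 or x-ray replicates 2 or 3, and a direction that turned with spike-in centring (-0.12) and normexp (-0.0075), and its 4 neutron differences were 0.66, 0.78, 0.71, and 0.60. Hist1h2ba, an H2B variant gene known from the testis, was above background in all 36 mice but failed the fold filter, with group medians of 8.47 in controls, 9.38 after x-rays, and 8.84, 8.90, 8.86, and 8.90 in the neutron groups.

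H3, the core histone that carries most of the known regulatory marks, was called higher for 5, 2, 4, 4, and 1 of 6 genes relative to the array median, against 1, 0, 0, 1, and 0 of 7 higher and 1, 3, 3, 1, and 7 lower with spike-in centring. Hist1h3a, a stem-loop probe, was -0.65 to -0.35 in controls (median -0.40), 1.21 to 2.32 after x-rays (1.75), 0.73 to 2.50 after 5% (1.52), 1.17 to 2.23 after 15% (1.58), 1.21 to 2.85 after 25% (1.75), and -0.44 to 1.07 after 83% neutron (0.26). It was well above background in 2 of 6 controls and 2 of 6 mice after 83% neutron, and in all mice of the other groups. It thus passed the background filter on 28 arrays, through the groups where it was higher. Its differences after x-rays, 5, 15, and 25% neutron were 2.23 ± 0.20, 2.02 ± 0.29, 2.05 ± 0.22, and 2.34 ± 0.26 (SE), against controls of which 4 of 6 were not well above background, and its 83% difference of 0.74 ± 0.21 was not called. With spike-in centring the difference was 1.23 after x-rays and 1.26 after 25%, called in both, 0.33 after 5% and 0.59 after 15%, and -1.32 after 83% neutron.

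**Figure D4:**
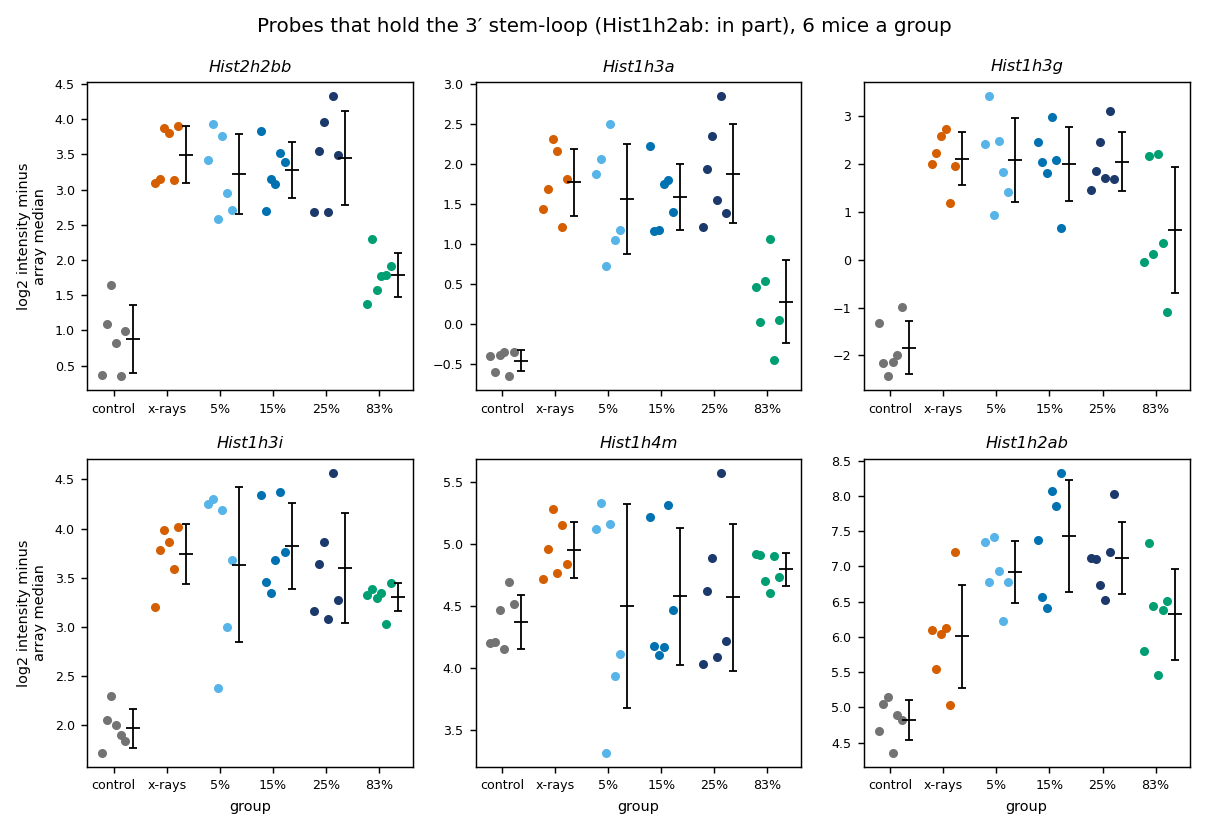
Log2 intensity minus the array median of probes that hold the whole stem-loop (Hist2h2bb, Hist1h3a, Hist1h3g, Hist1h3i, Hist1h4m) or a part of it (Hist1h2ab), 1 point per mouse, 6 mice a group, with mean and SD. Hist2h2bb is 0.35 to 1.64 in controls and 2.58 to 4.32 over the x-ray, 5, 15, and 25% mice; with spike-in centring its difference after 83% neutron turns negative.

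Hist1h3g, a further stem-loop probe, was not well above background in any control, so that only a bound can be given. It was well above background in 6 of 6 x-ray, 5%, and 25% mice, in 5 of 6 after 15%, and in 2 of 6 after 83% neutron. The level was at least 5.97-fold higher after x-rays, 5.86-fold after 5%, and 5.71-fold after 25% neutron than in controls, taking for each control the higher of its dimmest detected signal and the probe's own. Hist1h3i, the last H3 stem-loop probe, behaved differently after 83% neutron. Controls were 1.72 to 2.30 (median 1.95) and 83% mice 3.03 to 3.45 (3.33), and its differences were 1.77 ± 0.18, 1.66 ± 0.32, 1.85 ± 0.23, 1.63 ± 0.25, and 1.33 ± 0.13, each called. The H4 stem-loop probe, Hist1h4m, gave 0.58, 0.12, 0.20, 0.20, and 0.42 and was called in none by limma, with unadjusted p under 0.05 after x-rays and 83%. Hist1h3g, Hist1h3i, and Hist1h4m were named after their values were seen.

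Among the other H3 genes, Hist2h3b was 3.26 to 3.74 in controls (median 3.38), 4.51 to 5.20 after x-rays (4.83), 3.74 to 4.89 after 5% (4.37), 3.74 to 4.69 after 15% (4.35), 3.83 to 5.30 after 25% (4.44), and 3.55 to 4.26 after 83% neutron (3.72). Its differences of 1.43 ± 0.17, 0.90 ± 0.21, and 1.09 ± 0.26 after x-rays, 15%, and 25% were called, and 0.91 ± 0.23 after 5% and 0.37 ± 0.14 after 83% were not. The 15% call was lost without any 1 of 8 arrays (control replicates 1, 2, 4, 5, and 6 and 15% replicates 1, 5, and 6), and the 25% call without any 1 of 9 (the same controls and 25% replicates 2, 3, 5, and 6). Hist2h3c2, which had no listed position, was 2.39 to 2.88 in controls, 3.43 to 5.72 after 15%, and 4.08 to 4.63 after 25% neutron, and rose there by 2.10 ± 0.32 and 1.71 ± 0.18 (adjusted p of 8.29e-05 and 3.13e-06). Its x-ray, 5%, and 83% differences were 0.81, 1.26, and 0.17. Hist1h3d, whose probe is listed for 4 RefSeq genes, failed the fold filter at 7.92 to 8.69 in controls and 7.14 to 8.17 over the exposed mice. With quantile normalization it was tested, and was called lower in all 5 exposures (-0.79, -1.17, -1.18, -1.0, and -0.90).

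H4 had 9 genes but only 4 were tested. For Hist1h4d, Hist1h4j, Hist1h4k, and Hist2h4, the probes past the background filter moved too little for the fold filter. Hist1h4h failed the background filter, at 26 arrays. Hist1h4d had group medians of 8.85 in controls and 8.83, 9.10, 9.24, 9.13, and 8.76 in the exposed groups. Hist1h4k, whose probe ends on the stop codon, had 8.43 against 8.61, 8.52, 8.56, 8.50, and 8.39, and Hist2h4 had 8.29 against 8.51, 8.44, 8.45, 8.52, and 8.14. Of the tested genes, 2 were higher after x-rays, 1 was higher and 1 lower after 83% neutron, and 0 were called after 5, 15, or 25% by limma, where 1, 3, and 2 had an unadjusted p under 0.05; with spike-in centring 0, 7, 5, 1, and 7 of 7 tested were lower. Hist1h4i rose by 1.21 ± 0.24 after x-rays and 1.23 ± 0.13 after 83%, and a second probe of the gene by 0.87 ± 0.20 and 1.23 ± 0.14. Hist4h4, a gene apart from the clusters on chromosome 6 (chr6:136752681-136752740, minus strand), was 5.68 to 6.22 in controls (median 5.95) and 5.04 to 5.70 after 83% neutron (5.23), where it fell by 0.66 (SE 0.14, adjusted p = 0.00101). That call ended without control replicates 5 or 6 or 83% replicates 1, 3, 5, or 6, and its x-ray difference was 0.45 ± 0.19.

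The x-ray group had the highest mean for 15 of the 31 genes, and controls had the lowest for 23. Whether neutrons gave another histone pattern than x-rays was asked in 4 direct comparisons, of which those with 5 and 15% neutron shared the last scan session only and those with 25 and 83% none. After 5% neutron 0 of 31 histone genes and 0 of 10582 genes in all (0%) were called by limma or by the random variance t-test, and 7 histone genes had an unadjusted p under 0.05. After 15% neutron 4 histone genes were lower than after x-rays (5.28% of all genes called, 2.88% lower and 2.4% higher), after 25% 2 were lower (2.82%, 1.69%, and 1.12%), and after 83% 9 were lower (17.2%, 8.34%, and 8.82%). None was higher by limma, at unadjusted counts of 3, 3, and 5 higher. The median difference was -0.11, -0.14, and -0.58 for the 31 genes. With normexp it was 0.53 and 0.05 after 15 and 25%, and 2 genes were then higher and 0 lower after 15%.

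Hist1h3c and Hist1h3f, a pair of H3 genes whose probes share a run of 36 bases, were lower than after x-rays in 3 neutron groups. Hist1h3c lay between 6.26 and 7.58 in controls (median 7.53), between 8.12 and 9.05 after x-rays (8.78), between 6.21 and 8.48 after 5% (7.60), between 5.82 and 7.42 after 15% (6.36), between 6.19 and 8.36 after 25% (6.93), and between 6.12 and 7.52 after 83% neutron (6.92). The x-ray mice stood above all controls and above all mice given 15 or 83% neutron. Against x-rays it was lower by 2.13 ± 0.30, 1.57 ± 0.38, and 1.89 ± 0.25 on the log2 scale after 15, 25, and 83% neutron, with adjusted p of 0.0101, 0.0345, and 9.54e-05. Against controls it was higher after x-rays, at 1.45 ± 0.25 (adjusted p = 0.000296), and not called after any neutron exposure (0.23, -0.68, -0.12, and -0.44).

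Hist1h3f was 1.58 to 3.34 in controls (median 3.17), 3.39 to 5.26 after x-rays (4.56), 1.26 to 3.82 after 5% (2.92), 1.48 to 3.03 after 15% (1.78), 1.56 to 3.58 after 25% (2.49), and 1.31 to 2.54 after 83% neutron (2.02). Its differences from x-rays were -2.40 ± 0.35, -1.90 ± 0.41, and -2.52 ± 0.30 after 15, 25, and 83%, called in each. The 5% difference of -1.69 ± 0.42 had an adjusted p of 0.0728 from limma. Hist1h2bm was 8.39 to 9.03 in controls (8.70), 9.38 to 10.07 after x-rays (9.66), 8.24 to 8.97 after 15% (8.32), and 8.22 to 8.87 after 83% neutron (8.35), and was lower than after x-rays by 1.20 ± 0.25 and 1.24 ± 0.19 in these 2 neutron groups. Hist1h2aa was lower by 1.86 ± 0.33 and 1.88 ± 0.27, with 2 of 6 mice after 15% and 3 of 6 after 83% neutron well above background. Hist1h3c, Hist1h3f, Hist1h2bm, and Hist1h2aa kept the sign of these differences with spike-in centring and quantile normalization and in the deposited table, and Hist1h3c and Hist1h3f were then called after 15, 25, and 83% neutron. With normexp, Hist1h3c and Hist1h3f stayed below 0 and were not called.

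**Figure D5:**
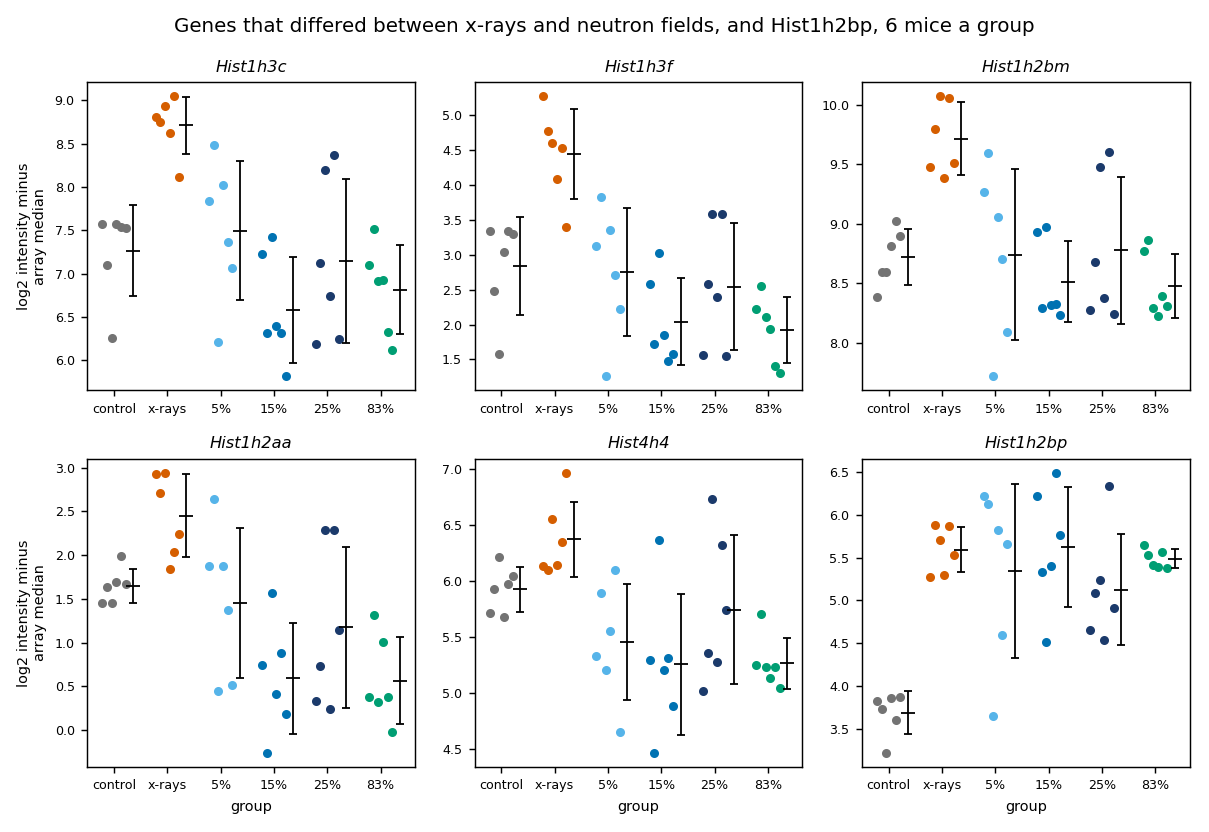
Log2 intensity minus the array median of 5 genes that were lower after at least 1 neutron exposure than after x-rays, and of Hist1h2bp, which was not; 1 point per mouse, 6 mice a group, with mean and SD. For Hist1h3c the x-ray mice (8.12 to 9.05) lie above all 15 and 83% neutron mice.

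Within the scan session that x-rays and 15% neutron shared, 1 mouse against 1, Hist1h3c was -0.70, Hist1h3f -0.36, Hist1h2bm -0.54, and Hist1h2aa -0.67, so that all 4 differences kept their sign at a smaller size. The same 15% mouse was above its session's control for each of these genes, by 1.16, 1.45, 0.38, and 0.12. Of the 31 genes, 1 was above 0 in the 15% mouse against the x-ray mouse of that session, and 0 in the 5% mouse (medians -0.73 and -0.87). With the session as a block 0 genes were called between 15% neutron and x-rays by limma, and 0 had an unadjusted p under 0.05. Comparisons of 25 and 83% neutron with x-rays cannot be told apart from session.

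After 83% neutron, the other genes lower than after x-rays were Hist2h2bb (-1.7 ± 0.22), Hist1h3a (-1.49 ± 0.27), Hist4h4 (-1.11 ± 0.19), Hist2h3b (-1.06 ± 0.18), and Hist1h2ah (-0.74 ± 0.17). Every 83% mouse was below every x-ray mouse for each of these, with Hist1h3a well above background in only 2 of 6 mice after 83%. These genes were taken because they were called, and how many of all genes were as fully apart was not counted. Hist1h2bb, an H2b gene above background in 11 mice, was detected in 6 of 6 x-ray mice and in 0 of 6 after 83% neutron, and was at least 1.88-fold higher after x-rays. The total dose was 3 Gy of x-rays against 0.75 Gy of neutrons, and no common dose was measured. Without x-ray replicate 5, the lowest of its group in 12 of the 31 genes and the highest in 8, 15 genes were lower rather than 9. Without 15% replicate 3, the only 15% array of the last session, 7 rather than 4 were called between 15% neutron and x-rays. The 25% count fell from 2 to 0 or 1 without x-ray replicates 1 to 5 or 25% replicates 1, 2, 4, or 6.

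The 83 and 25% groups received the same neutron dose, the second with x-rays on top, and were scanned together. Here 5 of 31 genes differed (13.5% of all genes called), 3 lower and 2 higher after 83% (8.54% and 4.93% of all genes). Hist2h2bb was lower by 1.66 ± 0.28 (adjusted p = 0.00063), Hist1h3a by 1.60 ± 0.31 (adjusted p = 0.00144), and Hist2h3c2 by 1.55 ± 0.17 (adjusted p = 3.06e-05), with all 6 mice of one group below all 6 of the other. How many of all genes were as fully apart was not counted. Hist1h3a was well above background in 6 of 6 mice after 25% but 2 of 6 after 83%. It had passed the background filter through the groups where it was higher, so its p is no independent support. The H2a gene Hist1h2ac was higher after 83% by 0.97 ± 0.23 (adjusted p = 0.00626) and the H2b gene Hist1h2be by 0.95 ± 0.23 (adjusted p = 0.0067). Hist1h2be had lain at -0.53 and 0.42 from controls after 25 and 83%. These higher calls, seen before the genes were named, were absent under 1 model of all 36 arrays, and the count fell to 3 without any of 25% replicates 1, 2, 4, or 6 or 83% replicates 1, 5, or 6. For Hist1h2bp the 2 groups differed by 0.36 ± 0.26, which with 2 SE on either side spans -0.16 to 0.89, and for Hist1h3i by -0.29 ± 0.24, which spans -0.78 to 0.19.

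Genes that work with the clustered histones were called in both directions. Over all genes, in the order of the 5 comparisons with controls, 16.4, 12, 16.5, 14.5, and 19.5% were higher. The shares lower were 19.9, 15.8, 18.4, 15.8, and 24.1%. Counts of the lists below were not tested against these shares. Of 8 tested replication-independent histone genes, 2, 2, 3, 3, and 2 were higher and 2, 1, 0, 0, and 1 lower in the 5 comparisons with controls. H2afj, which shares long runs with the H2a stop-codon probes, rose by 1.39, 1.13, 1.25, 1.09, and 0.54, called in each. H3f3a, one of the genes for the H3.3 variant, rose by 1.65 after x-rays and by 1.30, 1.17, and 0.99 after 15, 25, and 83%, whereas H3f3b, which codes for the same protein, fell by 1.19 after x-rays and by 1.05 after 5%. H2afz, the H2A.Z gene, was called after 5, 15, and 25% neutron (1.27, 1.60, and 1.30).

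Histone chaperones, which carry histones to DNA, were called in both directions as well. Of 11 tested, 3 were higher in each comparison and 2, 3, 5, 3, and 4 lower. Rbbp4 rose by 2.61, 2.69, 3.05, 2.73, and 1.41, Anp32e by 2.07, 1.90, 2.15, 1.63, and 1.85, and Asf1b by 2.04, 1.88, 1.94, 1.83, and 0.94, while Nap1l1 fell by 1.69, 1.40, 1.84, and 1.01 in the first 4 and was -0.45 after 83%. None of the 6 tested genes of histone message transcription and processing was higher, also at an unadjusted p under 0.05, and 3, 2, 3, 2, and 4 were lower by limma. Pou2f1, the octamer-binding factor, fell by 1.95, 1.41, 1.40, 1.26, and 0.78, and Cpsf2, a subunit of the cutting complex, by 1.98, 1.31, 1.5, 1.26, and 0.81. Slbp itself was called after 83% neutron alone, at -0.94, and was named after its value was seen.

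Other genes of DNA replication were called in both directions too. Of 11 tested S-phase genes, 1, 3, 3, 3, and 1 were higher and 1, 1, 3, 2, and 4 lower. Rrm2, the small subunit of ribonucleotide reductase, rose by 2.65, 3.01, 3.25, 3.02, and 1.98, and Mcm2, part of the replicative helicase, was called after 5, 15, and 25% neutron (1.59, 1.7, and 1.89). Cdt1, which loads that helicase, fell by 1.58, 1.77, 2.17, 1.59, and 1.45, and Fen1, the flap endonuclease, by 1.24, 0.86, and 1.40 after 15, 25, and 83%. Lists of this size are described by their counts only. These directions are relative to the array median. With spike-in centring, 3, 7, 4, 2, and 9 of 9 replication-independent histone genes, 10, 11, 10, 8, and 13 of 15 chaperones, 8, 10, 9, 7, and 10 of 10 processing genes, and 6, 11, 11, 4, and 14 of 16 S-phase genes were lower, and at most 1 of a list was higher. Of all genes 51, 65.6, 56.4, 39.1, and 88.1% were called with that centring, and 2.16, 0.638, 1.81, 1.68, and 0.42% were higher.

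Single mice carried part of the spread within groups. The 5% replicate 3 was the lowest of its group for 20 of the 31 genes and 5% replicate 2 the highest for 19, and 25% replicate 5 and 83% replicate 2 were each the highest of their groups for 21. Without 5% replicate 3 the number of genes higher after 5% was 12, and without any single control, or 5% replicates 1, 2, or 4, it was 4 or 5.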

How the data were processed

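Per the labels, blood RNA of 36 separate mice was labelled and hybridised to 1-color Agilent mouse arrays, 1 array per mouse. The study's methods add that globin RNA was cleared. The authors deposited the scanner output (Agilent Feature Extraction 12.0.2, per the submitters' processing notes), in which the intensity is background-subtracted, and a table of log2 values that the authors had normalised and filtered, used here as an alternative only. The kit named in the labels differs from that in the methods. The mm9 build is that of the probe positions in the files.

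Processed intensities were log2 transformed and centred on each array's median over non-control probes. The filters were adapted from the methods, with the well-above-background flag in place of significance above background. A probe had to be uniform and well above background on over 75% of 36 arrays, with 20% of arrays at least 1.5-fold from its median, and the brightest probe represented a gene. Each comparison was fitted on its 12 arrays with limma 3.58.1 in R 4.3.3, with Benjamini-Hochberg adjustment over 10582 genes, and a gene was called at p under 0.001 and adjusted p under 0.05. Sequences and figures were handled in Python 3.11.15. Fits were tested on simulated data. The precision of a value is limited by the 6 arrays per group.

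Groups were taken from the sample titles. The members, gene lists, and tests were chosen with earlier results of these data known. Genes given values were the 3 brightest past the background filter in each class and the 3 largest called rises and falls in each comparison with controls. Genes outside this rule were picked with their values in view, among them Hist1h2ak, Hist1h3f, Hist1h4i, and Hist2h2ac. Ranges given with 2 SE on either side of a difference are not exact confidence intervals. In related lists, up to 4 called genes per list were named by intensity. Alternatives covered scaling, background correction, filters, probe choice, the deposited table, 1 model over 36 arrays, the random variance t-test of the methods, replicate, slide, and session blocks, and leaving out each array. No column of the files was left unmapped.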

Additional observations from a re-analysis of the deposited data

Results flagged for a closer look

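In 102 tests of a group's highest and lowest mouse, 7 stood apart from the other 5 mice by more than Dixon's critical value, where chance gives about 1 in 20. Of these, 5 were 83% neutron replicate 2, which was the highest of its group: Hist1h1b was at 4.95 there (log2 intensity minus the array median), Hist1h2af at 11.76, Hist1h2ah at 11.72, Hist2h3b at 4.26, and Hist4h4 at 5.70. The other 2 were control replicate 3, the only control scanned in the last session, which was the lowest control for Hist1h3c at 6.26 and the highest for Hist2h3b at 3.74. The part of that session in both values was not tested.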

How the results depend on the processing

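The counts of called histone genes moved most with scaling and background correction. With spike-in centring they were 5 after x-rays, 20 after 5%, 9 after 25%, and 33 after 83% neutron against controls, mostly lower, of 37 tested, and 9 for 5% and 27 for 83% neutron against x-rays and 27 for 83% against 25%. Of all genes 51, 65.6, 39.1, 88.1, 10.9, 31.7, and 24.4% were called there. After 15% the count stayed within 1.5 times that of the main fit (12 higher, 0 lower), but the direction turned. No H2a, H2b, or H3 gene was called higher after 15%, and genes of each, and of H4, were lower. Of all genes 56.4% were called there, 1.81% higher. With normexp, which left 32 histone genes tested, the counts were 0 after x-rays, 5, 25, and 83%, 2 after 15%, 2 (both higher), 0, and 0 for 15, 25, and 83% against x-rays, and 0 for 83% against 25%, with 0 to 7.5% of all genes called. Centring on the 75th percentile gave 26 after x-rays and 21 after 83%, of 34 tested (39.1 and 49.3% of all genes called). Centring on probes always above background gave 26 after x-rays, 15 after 5%, and 14 for 83% against x-rays, also of 34 (40, 32.7, and 21.2%). Quantile normalization and the deposited table each gave 9 after 25%, of 26 and 30 tested (35.9 and 22.3% of all genes called), and the table gave 3 for 83% against 25% (11.1%). One model over 36 arrays gave 4 after 83%, 2 and 8 for 5 and 15% against x-rays, and 3 for 83% against 25%, of 31 tested (26.8, 5.32, 12.5, and 11.7% of all genes). Requiring all 36 arrays above background gave 2 and 1 for 15 and 25% against x-rays, of 27 tested (6.29 and 3.36% of all genes). The significance flag in place of the background flag, chosen after seeing the data, gave 3 for 83% against 25%, of 37 tested (11.4% of all genes). The session block gave 0 after 5% and 15% and 0 for 15% against x-rays (0.784, 1.63, and 0% of all genes called), and could not be fitted where groups shared no session. The slide block gave 7 after x-rays, 0 after 5% and 15%, 0 for 15% against x-rays, and 2 for 83% against 25% (11.1, 0.18, 0.68, 0, and 2.95% of all genes). The cause of these moves was not tested.

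The replicate block gave 5 after 5% and 3 for 83% against 25% (18.6 and 12.5% of all genes called), and stayed within 1.5 times elsewhere. Mice with the same number did not pair: their deviations correlated at a mean of 0.0571 (-0.767 to 0.779), and 43 of 180 array comparisons were closest to their own number. Leaving out 1 array gave 13 to 18 after x-rays, 4 to 12 after 5%, 11 to 17 after 15%, 10 to 15 after 25%, and 11 to 15 after 83%, then 0, 4 to 7, 0 to 2, and 8 to 15 for 5, 15, 25, and 83% against x-rays, and 3 to 6 for 83% against 25%.

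Of 1122 values of 42 called named-gene differences, 913 kept their call, 189 kept the direction only, and 20 turned. With spike-in centring these were, after x-rays, Hist1h2bc (-0.12) and Hist1h2bm (-0.0044), after 5%, Hist2h2aa2 (-0.52), Hist1h2af (-0.57), and Hist1h2bp (-0.032), after 15%, Hist2h2aa2 (-0.22), Hist1h2af (-0.25), Hist1h2ah (-0.37), and Hist2h3b (-0.56), and after 83%, Hist1h1t (-0.42), Hist2h2aa2 (-1.42), Hist1h2af (-1.43), Hist1h2ab (-0.56), and Hist1h2bp (-0.26). With normexp they were Hist1h2bc after x-rays (-0.0075), Hist2h2aa2 (-0.90) and Hist1h2af (-0.99) after 5%, and Hist2h2aa2 (-1.10), Hist1h2af (-1.12), and Hist1h2ab (-0.088) after 83%.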
